A study of Homo sapiens with 6 samples.

Results

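The transcripts described here are those of 10 genes that set the activity of mTORC1, the growth-promoting kinase complex, in Kasumi-1 cells with and without silencing of PHF19. They are the inhibitor gene DDIT4, the sestrin genes SESN1, SESN2 and SESN3, the mTORC1 components DEPTOR, AKT1S1 and RPTOR, and the upstream switch genes RHEB, TSC1 and TSC2. They were taken by symbol from a table of 26410 rows, and all 10 were found and passed the filter on low counts. They were chosen by name with the difference between the groups already known, DDIT4 for its large fall, so the changes below are descriptions of these libraries and the calls are given without p-values. Kasumi-1 is a human acute myeloid leukaemia line carrying the RUNX1::RUNX1T1 fusion. Every library came from cells that received lentivirus and puromycin at 2 µg/ml, begun 48 h after virus delivery and kept for at least 24 h. The 3 control libraries carry a scrambled hairpin according to the series title and the treatment protocol, although their treatment label reads WT, and the 3 shPHF19 libraries carry a hairpin against PHF19. The labels give 1 cell line, describe no separate cultures for the replicates, and name no further hairpin or rescue, so the spread between libraries may be technical.

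mTORC1 phosphorylates S6 kinases and the 4E-BP inhibitors of translation when growth factors, energy and amino acids are sufficient. Growth factors act through AKT on the TSC1-TSC2 complex, which switches off the GTPase RHEB, the direct activator of mTORC1 on the lysosome. Amino acids act through the Rag GTPases, whose inhibitor GATOR1 is held back by GATOR2, and sestrins bind GATOR2 when leucine is scarce. DDIT4 (also called REDD1) is induced by hypoxia, glucocorticoids and the integrated stress response and restrains mTORC1 through TSC2. DEPTOR and AKT1S1 (PRAS40) are inhibitors bound to the complex itself, and RPTOR (raptor) is the scaffold that recruits its substrates.

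The libraries held 14229878 to 16615143 counts. PHF19 stood at 168, 199 and 189 CPM (counts scaled to a common library size with TMM factors) in control replicates 1, 2 and 3, and at 41.1, 36.9 and 33 CPM in shPHF19 replicates 1, 2 and 3. The labels therefore matched the targeted transcript in all 6 libraries. All 9 markers fixed for myeloid blasts were above 1 CPM on average, MPO highest, and their summed level, most of it MPO and KIT, ran from 8549 to 8858 CPM in control and from 13198 to 13954 CPM in shPHF19 libraries. These markers did not move together: MPO, CD34, CD33, SPI1 and RUNX1 rose, PTPRC fell from 256 ± 30.4 to 98.2 ± 10.6 CPM (log2 fold change -1.38; SD, n = 3) and RUNX1T1 fell (-0.37), and KIT (0.16) and CEBPA (-0.17) were not called (edgeR, adjusted p under 0.05). Of 13 markers of other cell types, 4 averaged at least 1 CPM. Their sum was 93.5 to 107 CPM in control and 138 to 150 CPM in shPHF19 libraries, mostly EPCAM and CD3D, and its part in the results was not tested. In these bulk libraries a lower share of cells with a transcript and less of it per cell cannot be told apart.

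Of the 10 genes, 3 fell (DDIT4, SESN2 and SESN1), 4 rose (DEPTOR, RPTOR, AKT1S1 and TSC2) and 3 were not called (RHEB, TSC1 and SESN3) in the edgeR quasi-likelihood test at an adjusted p under 0.05. Among all 13014 genes tested, 60.2% were called, 29.4% higher and 30.9% lower, so a count of 7 in 10 is near the background and nothing is read from it. The values of the groups did not overlap for 7 of the 10, and for 63.5% of all genes. Changes of at least 2-fold that were also called were found in DDIT4, SESN2 and DEPTOR, against 16.6% of all genes. The median log2 fold change of the 10 was 0.18, and that of all genes was -0.03. When libraries were scaled by their totals only, the median of all genes shifted to -0.24, and the split became 3 higher and 4 lower for the 10 genes and 2590 higher and 5624 lower for all genes, in place of 3820 and 4015.

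**Figure D1:**
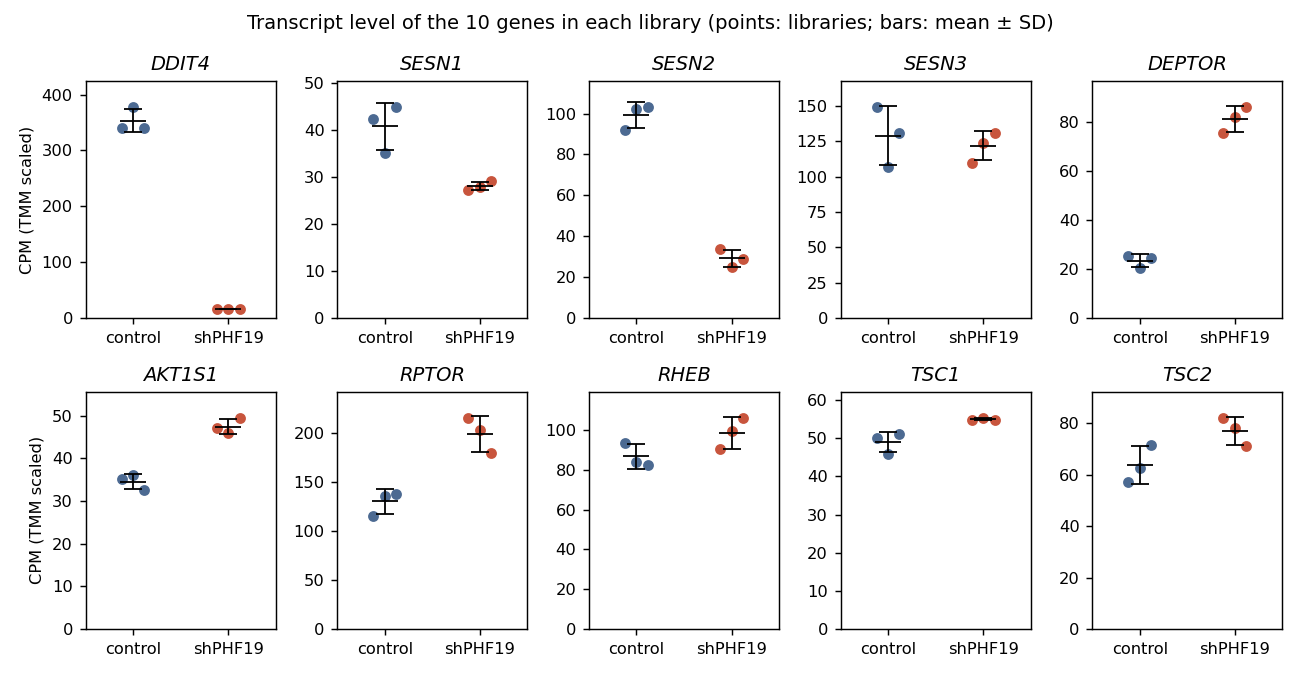
Level of each of the 10 transcripts in CPM (vertical axis, from 0, a different range in each panel) in 3 control and 3 shPHF19 libraries; points are libraries and bars are the mean ± SD. DDIT4 drops from 341 to 377 CPM to about 16.7 CPM and DEPTOR climbs from 20.5 to 25.4 CPM to 75.6 to 86 CPM, while the points of SESN3, RHEB and TSC2 overlap between groups.

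DDIT4 fell further than the other 9. Its control libraries held 341, 377 and 341 CPM and its shPHF19 libraries 16.7, 16.8 and 16.6 CPM. The groups were separated by 20.2-fold between their nearest libraries. The shPHF19 libraries hardly differed from each other, a closeness of 3 values from 225 to 260 counts that is not read as precision. The means were 353 ± 20.4 and 16.7 ± 0.127 CPM (SD, n = 3 each), 21.1-fold lower with a log2 fold change of -4.40 (SE 0.0994). The counts behind them were 5544, 6389 and 5265 in control and 225, 260 and 241 in shPHF19 libraries, so the low values stand well above the 0.177 to 0.223 CPM that 3 counts represent. Among the 10341 tested genes that averaged 5 CPM or more, 5 had a fall at least as large, DDIT4 included. The gene lies on the plus strand of chromosome 10 from 72273920 to 72276036 (GRCh38, GENCODE 29), and no other counted gene overlaps it.

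The 5 genes whose centred log2 CPM profile over the 6 libraries lay nearest to that of DDIT4 were INHBE, TM6SF1, ANXA1, ITGAL and P2RX7, at Euclidean distances of 0.404, 0.458, 0.516, 0.519 and 0.59 log2 units. With only a pair of groups this measure ranks mostly the size of the fall. P2RX7, an ATP-gated ion channel gene, fell from 442 ± 13.9 to 29.1 ± 1.04 CPM (SD, n = 3). INHBE, the activin beta E subunit gene, went from 11.1 ± 0.862 to 0.418 ± 0.0912 CPM (SD, n = 3), the latter from 7, 6 and 5 counts.

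The sestrins differed from each other. SESN2, a leucine sensor and a target of ATF4, fell from 91.9, 102 and 103 CPM in control to 33.6, 25.1 and 28.9 CPM in shPHF19 libraries. Each shPHF19 library was below each control library by at least 2.74-fold. The means were 99.1 ± 6.3 and 29.2 ± 4.22 CPM (SD, n = 3), 3.39-fold lower with a log2 fold change of -1.77 (SE 0.106). SESN1, a stress-induced sestrin, fell less, from 42.4, 35.1 and 44.8 CPM to 27.2, 27.9 and 29.1 CPM. The nearest libraries of its groups were 1.21-fold apart, and its log2 fold change was -0.54 (SE 0.116). SESN3, a target of FOXO factors, held 149, 107 and 131 CPM in control and 110, 124 and 131 CPM in shPHF19 libraries. Those ranges overlapped almost fully. Its log2 fold change was -0.08 (SE 0.0953, 95% interval -0.27 to 0.10), which leaves room for small changes in either direction. It turned to 0.03 without control replicate 1, the highest library, and it was called lower (-0.29) with library totals only. SESN2 lies on chromosome 1 from 28259527 to 28282491 (plus strand), SESN1 on chromosome 6 from 108986437 to 109094819 and SESN3 on chromosome 11 from 95165513 to 95232541 (both minus strand).

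The make-up of the sestrin transcripts shifted with these changes. Per kilobase of annotated exon, the summed sestrin level was 48.9 ± 2.2 CPM per kb in control and 25.5 ± 0.976 CPM per kb in shPHF19 cells (SD, n = 3). SESN2 supplied 54.3%, 63.6% and 58.5% of that sum in the control libraries and 38.2%, 29.8% and 31.7% in the shPHF19 libraries. SESN3 supplied 28.8%, 21.7% and 24.3% in control and 41%, 48% and 46.8% in shPHF19 libraries. SESN2 was thus the most abundant sestrin in each control library and SESN3 in each shPHF19 library on this scale. Without division by length, SESN3 already led in control, with 47.8% of the sestrin CPM, and held 68% in shPHF19 cells, so the change of leader depends on the length correction while the loss of share by SESN2 does not.

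**Figure D2:**
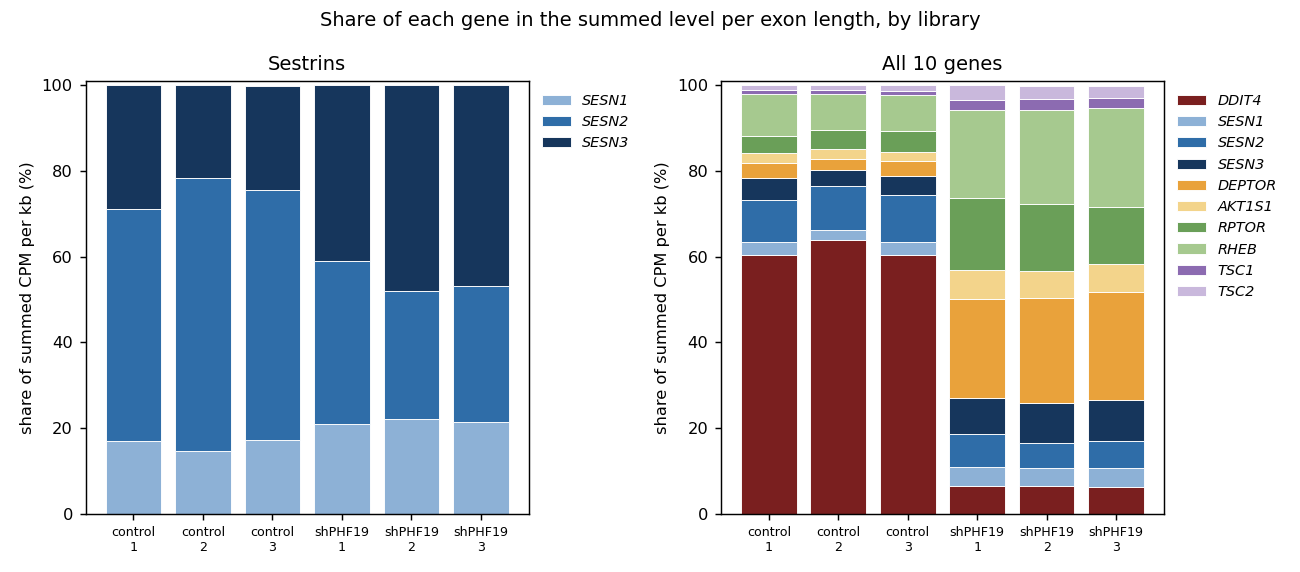
Share of each gene in the summed CPM per kb of annotated exon (vertical axis, %), 1 bar per library, for the 3 sestrins (left) and for all 10 genes (right). DDIT4 makes up 60.3% to 63.9% of the summed level of the 10 genes in control libraries and 6.2% to 6.53% in shPHF19 libraries.

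The 250 bases before the RefSeq transcript start (GRCh38.p14) of the 3 genes that fell are given 5′ to 3′ on the gene's strand, so that the motifs searched in them can be read in place.
DDIT4: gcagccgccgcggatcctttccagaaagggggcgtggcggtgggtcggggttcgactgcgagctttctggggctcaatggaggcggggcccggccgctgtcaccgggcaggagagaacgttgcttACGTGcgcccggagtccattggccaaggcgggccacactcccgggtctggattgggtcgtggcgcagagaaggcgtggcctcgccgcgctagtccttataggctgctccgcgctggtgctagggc
SESN2: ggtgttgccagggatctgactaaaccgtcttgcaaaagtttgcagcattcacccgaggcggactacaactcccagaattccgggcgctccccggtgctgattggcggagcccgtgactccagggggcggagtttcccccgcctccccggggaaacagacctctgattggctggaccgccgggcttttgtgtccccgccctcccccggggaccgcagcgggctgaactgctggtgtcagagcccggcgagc
SESN1: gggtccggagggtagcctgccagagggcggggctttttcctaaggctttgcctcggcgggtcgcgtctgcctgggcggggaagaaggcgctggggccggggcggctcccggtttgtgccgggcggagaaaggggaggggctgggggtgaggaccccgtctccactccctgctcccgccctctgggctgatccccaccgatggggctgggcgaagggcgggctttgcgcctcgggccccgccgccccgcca
DDIT4 is chr10:72273674-72273923 (plus strand), SESN2 chr1:28259268-28259517 (plus strand) and SESN1 chr6:109094847-109095096 (minus strand). Capitals mark matches, on either strand, to 4 motifs searched: TGATGNAA (the core of the C/EBP-ATF response element bound by ATF4), ACGTG (the core of the hypoxia response element), GTAAACA (the FOXO core) and CACGTG (the E-box, which contains ACGTG). DDIT4 held 1 match, ACGTG from base -125 to -121 counted from the start, and the SESN1 and SESN2 windows held none of the 4. Among 35116 promoters of the same length, 18.5% held ACGTG, 3.14% TGATGNAA, 2.98% GTAAACA and 6.34% CACGTG. Windows were found for 8 of the 10 genes (all but DEPTOR and AKT1S1). Of these, TSC2 held TGATGNAA, ACGTG and the E-box in 1 short stretch from base -114 to -103, RHEB held ACGTG, and SESN3, RPTOR and TSC1 held none. The windows of DDIT4, SESN1 and SESN2 had a GC content of 68.8%, 74.4% and 65.6%, and that of SESN3 was 42.8%, where the median of all promoters was 58%. A match is a run of letters, and binding was not measured.

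DEPTOR rose most of the 10, opposite to the inhibitor genes DDIT4 and SESN2. Control libraries held 25.4, 20.5 and 24.6 CPM and shPHF19 libraries 75.6, 82.2 and 86 CPM. Each shPHF19 library exceeded each control library by at least 2.98-fold. The means were 23.5 ± 2.62 and 81.2 ± 5.27 CPM (SD, n = 3), 3.46-fold higher with a log2 fold change of 1.79 (SE 0.108), and 43 of the 10341 genes with at least 5 CPM had a log2 fold change as large or larger, DEPTOR included. The gene lies on the plus strand of chromosome 8 from 119873717 to 120050913.

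AKT1S1, whose product blocks substrate access to mTORC1 until AKT phosphorylates it, rose from 35.2, 36 and 32.5 CPM to 47.1, 45.8 and 49.4 CPM. The groups did not overlap, and the log2 fold change was 0.46 (SE 0.107). Of its annotated exon bases, 6.83% are shared with TBC1D17 on the opposite strand, and no source used here says if the counting used strand. RPTOR rose from 115, 136 and 138 CPM to 215, 203 and 179 CPM, with a gap of 1.29-fold between the nearest libraries and a log2 fold change of 0.62 (SE 0.0887). RPTOR spans chromosome 17 from 80544819 to 80966371 (plus strand), and AKT1S1 chromosome 19 from 49869033 to 49878459 (minus strand).

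The TSC-RHEB switch genes differed little. RHEB held 93.7, 84 and 82.5 CPM in control and 90.3, 99.3 and 106 CPM in shPHF19 libraries, with overlap between shPHF19 replicate 1 and control replicate 1. Its log2 fold change of 0.19 (SE 0.0916, 95% interval 0.01 to 0.37) was not called, but it was called without control replicate 1 (0.24) or without shPHF19 replicate 1 (0.25), and it was -0.02 with library totals only. TSC1, the stabilising partner in the complex, held 50.1, 46 and 51.1 CPM in control and 54.7, 55.3 and 54.9 CPM in shPHF19 libraries. Those groups did not overlap, yet the difference of 0.16 (SE 0.1, 95% interval -0.03 to 0.36) was not called and was -0.04 with library totals only. TSC2, the subunit that acts on RHEB, rose from 57.1, 62.6 and 71.6 CPM to 82.1, 78.1 and 71.2 CPM (0.27, SE 0.0984), although control replicate 3 was slightly above shPHF19 replicate 3. The TSC2 call was lost without control replicate 1 (0.20) or shPHF19 replicate 2 (0.27), with upper-quartile factors (0.17) and with library totals only (0.07). Relative to the median of all genes, the values were 0.22 for RHEB, 0.20 for TSC1 and 0.31 for TSC2, with TMM and with library totals only. A change of scaling shifts all genes together, so this equality is built in and is no check of the calls. RHEB lies on chromosome 7 from 151466012 to 151520120 and TSC1 on chromosome 9 from 132891348 to 132946874 (both minus strand), and TSC2 on chromosome 16 from 2047465 to 2089487 (plus strand). TSC2 shares 3.96% of its annotated exon bases with PKD1 and 2.05% with NTHL1, both on the opposite strand.

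**Figure D3:**
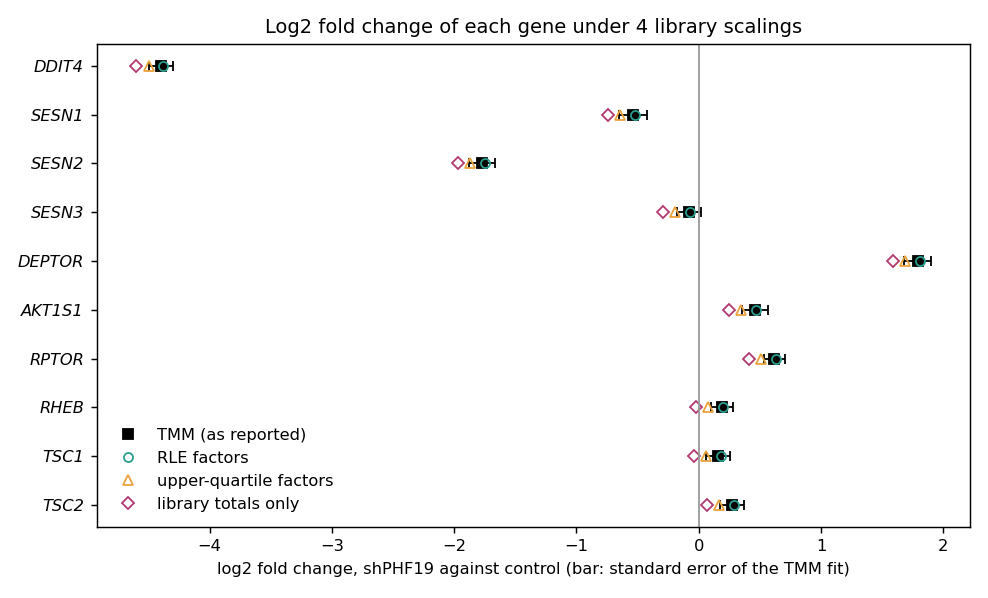
Log2 fold change of shPHF19 against control for each of the 10 genes (horizontal axis) under 4 library scalings; black squares are the reported TMM values with their standard errors. DDIT4, SESN2 and DEPTOR stay far from 0 under each scaling drawn, whereas RHEB (0.19 to -0.02) and TSC1 (0.16 to -0.04) cross 0 with library totals only.

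On the scale of CPM per kb of annotated exon, DDIT4 was the most abundant of the 10 in control cells at 171 ± 9.93, followed by SESN2 (28.7 ± 1.83) and RHEB (24.5 ± 1.72; SD, n = 3 throughout), whose nearest libraries stood at 26.6 and 26.5. RPTOR (12.6 ± 1.25) and SESN3 (12.2 ± 1.98) followed and did not differ beyond their spread, nor did DEPTOR (8.96 ± 0.998) and SESN1 (7.96 ± 0.983). AKT1S1 (6.02 ± 0.317), TSC2 (3.25 ± 0.372) and TSC1 (2.79 ± 0.152) were lowest. In shPHF19 cells DEPTOR (31 ± 2.01) and RHEB (27.9 ± 2.25) led with overlapping values, followed by RPTOR (19.3 ± 1.78) and SESN3 (11.5 ± 0.989). SESN2 (8.46 ± 1.22), AKT1S1 (8.27 ± 0.313) and DDIT4 (8.12 ± 0.0618) overlapped, above SESN1 (5.48 ± 0.179), TSC2 (3.93 ± 0.282) and TSC1 (3.12 ± 0.0182). DDIT4 thus went from rank 1 to rank 7 and DEPTOR from rank 6 to rank 1. The length of the longest coding transcript was also used in place of all exons, a choice made after the data were seen. DDIT4 again led in control (202 ± 11.7), and RHEB (41.8 ± 2.92) passed SESN2 there. RHEB led in shPHF19 cells (47.5 ± 3.84), with DEPTOR (31.6 ± 2.05) and RPTOR (31 ± 2.87) next and overlapping. DEPTOR had rank 9 in control on this scale, with values that overlapped those of AKT1S1, so its change of rank depends on the length used. TSC2 moved up to 10.1 ± 1.15 in control and 12.2 ± 0.872 in shPHF19 cells.

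Other genes of the pathway were described from 9 lists that held 121 genes, of which 110 passed the filter. Of these 33 rose, 42 fell and 35 were not called (68.2% called, against 60.2% of all genes), with a median log2 fold change of -0.10. With library totals only 25 rose and 57 fell, beside 2590 higher and 5624 lower of all 13014 genes. The shares of all genes given for each list below are those with TMM. The lists were drawn up with earlier results of these data known, and the list counts are descriptions.

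Of 9 tested genes of the mTOR complexes themselves, 5 rose and 2 fell (77.8% called, against 60.2% of all genes, median log2 fold change 0.51), with the same counts with library totals only. MTOR, the kinase, rose from 88.4 ± 3.85 to 133 ± 7.92 CPM (0.59), MLST8, a subunit of both complexes, from 45.8 ± 3.83 to 67.5 ± 5.27 CPM (0.56), and MAPKAP1, an mTORC2 subunit, from 123 ± 1.71 to 187 ± 1.07 CPM (0.61; SD, n = 3 throughout). TELO2, which helps to assemble kinases of the mTOR family, rose from 29.6 ± 3.04 to 68.3 ± 5.06 CPM (1.21; SD, n = 3). RICTOR, the scaffold of mTORC2, fell from 78.2 ± 12.4 to 61.3 ± 5.32 CPM (-0.35; SD, n = 3), the opposite sign to RPTOR. Its groups overlapped, with control replicate 2 (64.1 CPM) below shPHF19 replicate 3 (67.4 CPM). RICTOR was named after its values were seen, as was PRR5L (-0.28), the other gene of the list that fell. PRR5L was no longer called with DESeq2 (-0.27), with no filter on low counts (-0.26), without control replicate 1 (-0.28) or 2 (-0.21) or without shPHF19 replicate 2 (-0.25) or 3 (-0.20).

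Among 6 genes listed with TSC and RHEB, 3 rose, 1 fell and 2 were not called (66.7% called, against 60.2% of all genes, median 0.08). The list, drawn as TSC and RHEB partners, also holds FKBP1A, which is not a partner of either. FKBP1A, the protein that rapamycin binds, rose from 163 ± 8.32 to 340 ± 4.76 CPM (1.06), and PLD1, a phospholipase that makes the mTOR activator phosphatidic acid, fell from 129 ± 9.13 to 68.4 ± 4.53 CPM (-0.92; SD, n = 3). TBC1D7, the remaining core subunit of the TSC complex, had 0.34 and FKBP8 0.20. These calls were lost with upper-quartile factors (0.24 and 0.09) and library totals only (0.13 and -0.01). TBC1D7 also lost its call without control replicate 2 (0.32) or shPHF19 replicate 3 (0.29), and FKBP8 without control replicate 1 (0.16) or 3 (0.22) or shPHF19 replicate 1 (0.15) or 2 (0.21).

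The amino acid branch was mixed. Of 13 genes of the Rag GTPases, their lysosomal anchor Ragulator and the folliculin complex, 3 rose and 6 fell. The share called was 69.2%, against 60.2% of all genes, and the median was -0.16. With library totals only 2 rose and 7 fell. The Ragulator genes LAMTOR5 (32.8 ± 1.29 to 66.3 ± 8.61 CPM, 1.01) and LAMTOR4 (37.7 ± 1.45 to 66 ± 2.5 CPM, 0.81; SD, n = 3) rose. FNIP1, the folliculin partner, fell from 69.1 ± 0.349 to 37.6 ± 2.3 CPM (-0.88; SD, n = 3), and the Rag GTPase gene RRAGC fell from 40.7 ± 1.34 to 27.2 ± 1.03 CPM (-0.58; SD, n = 3).

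Of 17 genes of GATOR, its anchor KICSTOR and the nutrient sensors, 9 rose and 4 fell. The share called was 76.5%, against 60.2% of all genes, and the median was 0.37. With library totals only 7 rose and 6 fell. The GATOR1 gene NPRL3 rose from 23.7 ± 1.78 to 51.6 ± 4.83 CPM (1.12), and the GATOR2 genes SEC13 (90.6 ± 6.55 to 151 ± 8.94 CPM, 0.74) and WDR59 (47.1 ± 1.53 to 70.4 ± 4.57 CPM, 0.58) rose as well (SD, n = 3 throughout). KPTN, a KICSTOR subunit, rose from 4.29 ± 0.395 to 10.5 ± 0.922 CPM (1.30; SD, n = 3). The arginine sensor CASTOR1, listed in the table as GATSL3, fell from 2.58 ± 0.701 to 1.25 ± 0.531 CPM (-1.03; SD, n = 3), a call lost without control replicate 2 (-0.82) or shPHF19 replicate 3 (-0.76).

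The growth factor input acts through PI3K and AKT. Of 17 of its genes 6 rose and 3 fell (52.9% called, against 60.2% of all genes, median 0.08), and with library totals only 4 rose and 6 fell. AKT1, the kinase that phosphorylates TSC2 and AKT1S1, rose from 110 ± 5.92 to 230 ± 27.1 CPM (1.07; SD, n = 3). The PI3K catalytic subunit genes PIK3CD (0.68) and PIK3CG (0.55), which are typical of leukocytes, rose, and PIK3CB (-0.43) fell. Of 9 genes of LKB1 and AMPK, the energy-sensing kinase that acts on TSC2 and RPTOR, 1 rose and 2 fell (33.3% called, median -0.04), and with library totals only 1 rose and 5 fell. CAMKK2, an AMPK-activating kinase, rose from 153 ± 2.1 to 222 ± 12.9 CPM (0.54), and the catalytic subunit gene PRKAA1 fell from 154 ± 14.5 to 105 ± 5.39 CPM (-0.56), as did CAB39 (-0.52; SD, n = 3).

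Of 16 genes for substrates and effectors of mTORC1, 5 rose, 5 fell and 6 were not called. The share called was 62.5%, against 60.2% of all genes, and the median was -0.08. With library totals only 5 rose and 9 fell. Without shPHF19 replicate 2, 3 fell, as TFEB (-0.51, then -0.43) and LPIN1 (-0.26, then -0.25) were no longer called. TFEB also lost its call without shPHF19 replicate 3 (-0.39), and LPIN1 without control replicate 3 (-0.21) or shPHF19 replicate 1 (-0.21). TFEB and LPIN1 were named after their values were seen. CAD, the enzyme of pyrimidine synthesis that S6 kinase phosphorylates, rose from 157 ± 15.3 to 308 ± 32.2 CPM (0.97; SD, n = 3). ULK1, the autophagy kinase that mTORC1 inhibits, rose from 32.7 ± 3.48 to 65.7 ± 7.85 CPM (1.01; SD, n = 3), and the S6 kinase gene RPS6KB2 rose by 0.70 on the log2 scale. PDCD4, an inhibitor of translation that S6 kinase marks for degradation, fell from 100 ± 8.73 to 59.8 ± 6.13 CPM (-0.75; SD, n = 3). The phosphorylation by which mTORC1 activity is measured is not seen in RNA counts.

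**Figure D4:**
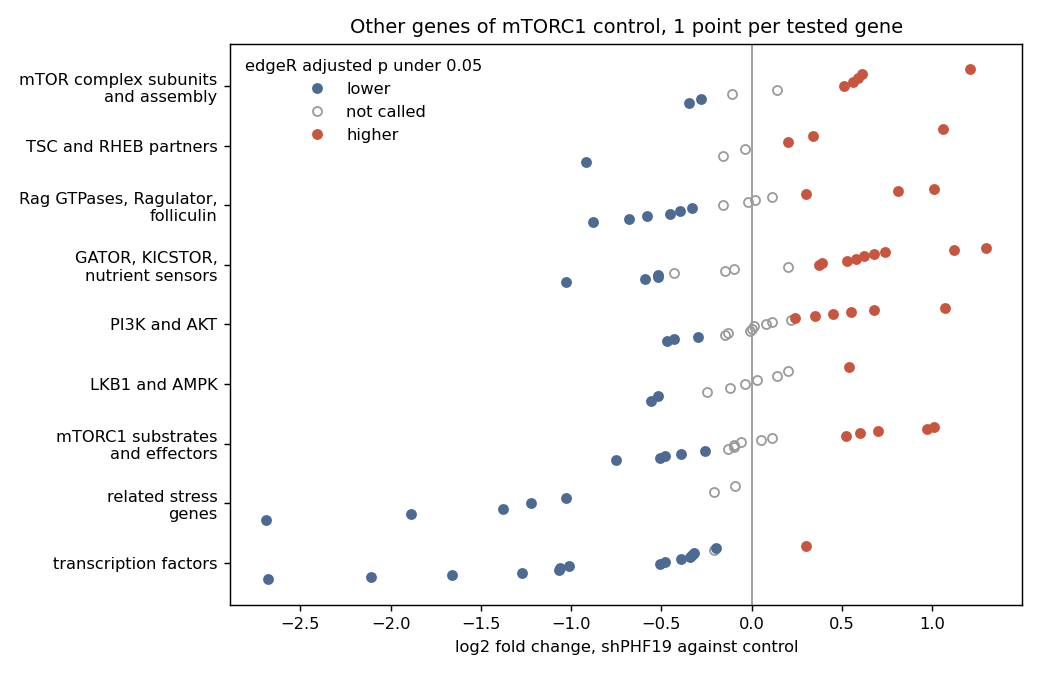
Log2 fold change of shPHF19 against control (horizontal axis) for each of the 110 tested genes outside the 10, by list; filled points passed an adjusted p of 0.05 in edgeR. The lists of related stress genes and transcription factors lie to the left, with medians of -1.22 and -0.49, while the mTOR complex list has a median of 0.51.

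Of 7 tested stress genes related to DDIT4, 5 fell, against 30.9% of all genes tested, and the list was not tested as a group. The median log2 fold change was -1.22. GADD45B (-0.21) and CHAC1 (-0.09), named after their values were seen, did not pass the test, and CHAC1 turned above 0 without control replicate 3 (0.18) or shPHF19 replicate 3 (0.14). GADD45B passed with upper-quartile factors (-0.32) and library totals only (-0.42). TRIB3, a pseudokinase reported to bind AKT, fell from 554 ± 47.9 to 85.7 ± 9.63 CPM (-2.69), BTG1, an antiproliferative gene, from 236 ± 13.3 to 63.7 ± 8.22 CPM (-1.89) and TXNIP, the thioredoxin-interacting protein, from 1141 ± 10.5 to 439 ± 20.6 CPM (-1.38; SD, n = 3 throughout). VLDLR (-1.22) and GADD45A (-1.03) fell as well. DDIT4L, the close relative of DDIT4 and named after its values were seen, was under the filter, at a mean of 0.0432 CPM in control and with no count in shPHF19 libraries, both below what 3 counts represent.

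Of 16 tested genes for transcription factors that are known to act on DDIT4 or the sestrins, 14 fell (against 30.9% of all genes, median -0.49). With library totals only 15 fell, a scaling under which 5624 of all 13014 genes fell. Without control replicate 2 or without shPHF19 replicate 3, 12 fell. DDIT3 (CHOP) fell from 110 ± 8.27 to 17.2 ± 1.79 CPM (-2.68), CEBPB from 72.2 ± 3.45 to 16.8 ± 1.59 CPM (-2.11) and ATF3 from 58.3 ± 2.14 to 18.4 ± 1.88 CPM (-1.66; SD, n = 3 throughout). NR3C1, the glucocorticoid receptor gene, fell from 138 ± 14.6 to 66.2 ± 1.07 CPM (-1.06; SD, n = 3). The FOXO genes FOXO3 (-1.01) and FOXO1 (-1.07) and the hypoxia factor gene EPAS1 (-1.27) fell by similar amounts. FOXO4, named after its values were seen, fell less (-0.34). Its call was lost without control replicate 2 (-0.24) or shPHF19 replicate 3 (-0.20). SESN3, a FOXO target, was not called. FOXO activity was not measured, and a link between these values was not tested. ATF4, named after its values were seen and regulated mainly at translation, fell from 734 ± 43.2 to 584 ± 18.3 CPM (-0.33; SD, n = 3).

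The authors' deposited table, which holds 5740 genes with a largest adjusted p of 0.00993, contains 6 of the 10 genes. As log2 fold changes the authors' deposited table gives -4.37 for DDIT4, -1.73 for SESN2, -0.49 for SESN1, 1.80 for DEPTOR, 0.62 for RPTOR and 0.46 for AKT1S1. SESN3, RHEB, TSC1 and TSC2 are not listed in it.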

How the data were processed

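RNA-seq of 6 Kasumi-1 libraries was used, grouped and numbered from the sample titles. The authors deposited whole-number counts per gene symbol, not normalized. The tools HTSeq 0.11.2 and HISAT2 2.1.0 and the build hg38 are named per the submitters' processing notes. The annotation and the strand setting are not stated in the labels used here. Dates had replaced 28 gene names (0.19% of counts), and these were kept unnamed. The authors also deposited their own comparison, with a baseMean signal, log2 fold changes and p-values, which was only read for the 10 genes.

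The whole count table was fitted in edgeR 4.0.16 (R 4.3.3; filterByExpr, which left 13014 genes, TMM, robust quasi-likelihood F test, group as the only term, Benjamini-Hochberg over all genes, threshold 0.05). CPM are TMM scaled, which takes higher and lower genes to balance. The SE is the log2 fold change over the square root of F, and 95% intervals are normal. The precision is set by counting and library spread, with a biological coefficient of variation of 0.0915, and 3 counts equal 0.177 to 0.223 CPM. Replicate libraries were not copies of each other (chi-square per degree of freedom 4.78 to 12.4). Exon lengths and positions came from GENCODE 29 (GRCh38) by symbol, and promoters from RefSeq (GRCh38.p14).

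The 10 genes and the lists were chosen with earlier results of these data known. Named in the text are the 10 genes, PHF19, the markers, the 5 genes nearest to DDIT4 with at least 5 CPM, and in each list up to 4 called genes with the smallest adjusted p plus those called at least 2-fold; genes beyond these are marked in the text. Some results that this rule covers are left out. Alternatives were DESeq2 1.42.0, limma-voom (limma 3.58.1), 3 other scalings, 2 other filters, the replicate number as a block, and leaving out each library. No library was left out of the reported values.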

Additional observations from a re-analysis of the deposited data

How the results depend on the processing

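Each of the 10 genes was refitted under 14 alternatives. DDIT4 (-4.60 to -4.34), SESN2 (-1.97 to -1.66), SESN1 (-0.74 to -0.46), DEPTOR (1.59 to 1.85), RPTOR (0.41 to 0.69) and AKT1S1 (0.25 to 0.50) kept their direction and their call in all 14, as did PHF19 (-2.53 to -2.24). With library totals only, SESN3 became called (-0.29), TSC2 lost its call (0.07), and RHEB (-0.02) and TSC1 (-0.04) turned below 0 without being called; TSC2 also lost its call with upper-quartile factors (0.17). Leaving out 1 library gave -0.19 to 0.03 for SESN3, with the change of sign without control replicate 1, 0.14 to 0.25 for RHEB, 0.13 to 0.20 for TSC1 and 0.20 to 0.37 for TSC2. Without division by length the mean shares of summed sestrin CPM moved to 15.7% for SESN1 in shPHF19 cells, to 37.1% and 16.4% for SESN2 in control and shPHF19 cells, and to 47.8% and 68% for SESN3. Of 252 list counts under the alternatives, 235 were within 1.5 times the reported count. Same-numbered libraries did not deviate together (correlations -0.164, -0.00655 and -0.0537 over genes), so the replicate numbers are not treated as pairs, and with the replicate number as a block all 10 genes stayed on the same side of the threshold, for example DDIT4 at -4.40, TSC2 at 0.28 and RHEB at 0.18. Among the named genes of the lists, PRR5L (-0.28) and FKBP8 (0.20) were not called with that block. The causes of these shifts were not tested. Depth limits little here, since the lowest of the 10 genes had 225 counts in a library.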
